A study of Mus musculus with 6 samples.

Results

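The type I interferon-stimulated gene module comprises 40 mouse genes whose transcription is known to be induced when cells sense type I interferon. Its members were chosen by gene symbol from a fixed list, without a threshold on measured values but with earlier results of these data known. All 40 were found among the 46078 Ensembl genes of each count table. RNA sequencing of total RNA gave counts per gene for 6 libraries, 3 labelled JMML, for juvenile myelomonocytic leukemia, a cancer of myeloid blood cells in young children, and 3 labelled WT (wild type). The series title names a mouse leukemia model with sustained fetal blood formation. The labels state neither tissue, strain, age, altered gene nor any treatment, and not whether each library came from a separate animal. The p-values therefore cover only the spread among the 6 libraries, part of which may be technical. Library totals were 91976512, 108395459 and 95382538 counts in JMML replicates 1, 2 and 3, and 61656272, 47096464 and 56163368 counts in WT replicates 1, 2 and 3.

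Type I interferons bind a receptor of the chains IFNAR1 and IFNAR2, whose kinases JAK1 and TYK2 phosphorylate STAT proteins, among them STAT2. STAT2 and IRF9 are subunits of the factor ISGF3, which binds the interferon-stimulated response element (ISRE) in the promoters of its target genes. The target proteins bind or degrade viral nucleic acid, block virus entry and release, and feed back on the pathway itself. In blood-forming tissue, interferon is known to act on stem cells, monocytes and dendritic cells.

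Promoter windows of 300 bases, running from 250 bases before to 50 bases after an annotated gene start, were available from RefSeq (GRCm38.p6) for 30 of the 40 members. The letters GAAANNGAAA, the core of the ISRE, were searched on both strands, and they were present in a window of 15 of these 30 members (50%), against 3.99% of the 27025 genes that have a window. The letters TTCNNNGAA, the core of the interferon-gamma activated site, were present for 6 of the 30 members (20%), against 9.55% of all genes. Matches of both motifs overlapped in 2 of the 37 windows of the members, and overlapping ISRE matches were counted separately. A match is a run of letters, and binding was not measured. Below are 7 windows, written along the strand of the gene with the ISRE letters in capitals. Isg15 is shown for its 3 overlapping matches, and Ifit1 and Rsad2 as examples with 2 matches and 1 match. Ifit3 and Ifit3b are shown as near-identical neighbours, Phf11b as a member higher in every JMML library, and Pml as a member with no match that was lower in every JMML library.
Isg15, chr4:156200769-156201068, minus strand: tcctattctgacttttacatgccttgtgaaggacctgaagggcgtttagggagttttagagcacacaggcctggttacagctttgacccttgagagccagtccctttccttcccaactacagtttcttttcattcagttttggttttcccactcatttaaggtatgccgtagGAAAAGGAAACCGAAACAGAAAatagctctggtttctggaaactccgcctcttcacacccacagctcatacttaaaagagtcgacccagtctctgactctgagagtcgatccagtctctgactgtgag
Ifit1, chr19:34640639-34640938, plus strand: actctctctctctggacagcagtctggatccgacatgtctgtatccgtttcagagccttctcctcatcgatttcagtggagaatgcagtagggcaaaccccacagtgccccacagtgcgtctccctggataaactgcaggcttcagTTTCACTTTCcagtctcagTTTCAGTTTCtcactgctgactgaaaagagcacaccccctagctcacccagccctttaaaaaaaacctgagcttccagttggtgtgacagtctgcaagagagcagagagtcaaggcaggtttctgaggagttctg
Ifit3, chr19:34583279-34583578, plus strand: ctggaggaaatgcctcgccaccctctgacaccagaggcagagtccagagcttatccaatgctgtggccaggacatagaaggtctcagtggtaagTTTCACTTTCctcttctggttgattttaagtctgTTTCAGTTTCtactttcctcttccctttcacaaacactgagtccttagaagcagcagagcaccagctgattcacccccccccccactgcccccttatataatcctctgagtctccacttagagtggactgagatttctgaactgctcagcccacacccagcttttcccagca
Ifit3b, chr19:34607707-34608006, plus strand: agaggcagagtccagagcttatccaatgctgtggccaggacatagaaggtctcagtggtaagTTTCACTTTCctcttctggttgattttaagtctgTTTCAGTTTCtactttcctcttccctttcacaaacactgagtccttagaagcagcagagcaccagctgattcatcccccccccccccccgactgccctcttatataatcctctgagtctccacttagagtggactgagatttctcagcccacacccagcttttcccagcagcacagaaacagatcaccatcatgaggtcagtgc
Rsad2, chr12:26456403-26456702, minus strand: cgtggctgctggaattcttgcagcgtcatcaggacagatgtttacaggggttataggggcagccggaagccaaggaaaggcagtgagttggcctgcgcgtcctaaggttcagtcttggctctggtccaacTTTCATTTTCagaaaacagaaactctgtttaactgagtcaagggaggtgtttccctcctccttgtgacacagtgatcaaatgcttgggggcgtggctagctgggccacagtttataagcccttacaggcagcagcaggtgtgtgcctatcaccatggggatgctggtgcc
Phf11b, chr14:59341281-59341580, minus strand: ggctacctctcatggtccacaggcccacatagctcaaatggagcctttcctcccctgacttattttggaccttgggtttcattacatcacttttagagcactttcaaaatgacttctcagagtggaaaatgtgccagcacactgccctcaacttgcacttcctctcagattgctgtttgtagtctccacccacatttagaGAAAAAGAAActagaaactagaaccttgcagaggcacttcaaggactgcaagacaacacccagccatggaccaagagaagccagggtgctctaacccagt
Pml, chr9:58249737-58250036, minus strand: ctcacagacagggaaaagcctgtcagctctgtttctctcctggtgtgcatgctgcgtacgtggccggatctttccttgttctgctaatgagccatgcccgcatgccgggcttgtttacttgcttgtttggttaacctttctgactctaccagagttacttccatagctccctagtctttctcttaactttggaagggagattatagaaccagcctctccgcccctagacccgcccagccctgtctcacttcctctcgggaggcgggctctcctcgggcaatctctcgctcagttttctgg

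In the windows above, the Ifit3 and Ifit3b sequences matched at 99.2% of 260 aligned bases, and each window holds the same pair of ISRE matches. Their longest coding transcripts matched at 98.0% of 1697 aligned bases, so reads of this pair may be split or lost between the copies. Phf11b and Phf11d matched at 91.1% of 1148 aligned bases, and Mx1 and Mx2 at 94.9% of the 919 bases that aligned. Exons of 13 members share bases with another annotated gene. All 1147 exon bases of Trex1 are shared with Atrip on the same strand, and over all 6 libraries Atrip was given 2899 counts and Trex1 18560. The other same-strand partners, of Herc6, Parp14, Sp100 and Rtp4, had 0 counts. Parp9 and Dtx3l, which are transcribed from opposite strands, share 458 exon bases, and the strand setting of the counting is not given in the sources used here.

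Values below are CPM (counts scaled to a common library size) after TMM scaling, in the order of replicates 1, 2 and 3 within each group. Most members were higher in JMML replicate 3 than in any WT library, were above WT by a smaller margin in JMML replicate 2, and were close to or below WT in JMML replicate 1. The median over members of log2 CPM minus the WT mean was −0.16, 0.95 and 1.95 in JMML replicates 1, 2 and 3, against 0.04, 0.12 and −0.10 in WT replicates 1, 2 and 3. Over all 18097 genes that passed the filter on low counts, the same median lay between −0.03 and 0.00 in every library. Among the 40 members, JMML replicate 3 was above all 3 WT libraries for 38, JMML replicate 2 for 35 and JMML replicate 1 for 10. The corresponding shares of all tested genes were 35.8%, 34.8% and 36.0%. JMML replicate 1 was below all 3 WT libraries for 20 members, against 37.3% of all tested genes. Summed over the members, expression was 1236, 2020 and 3805 CPM in JMML, against 1232, 1266 and 1165 CPM in WT. In these bulk samples, a change in the share of cells that use a gene and a change in RNA per cell cannot be told apart.

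**Figure D1:**
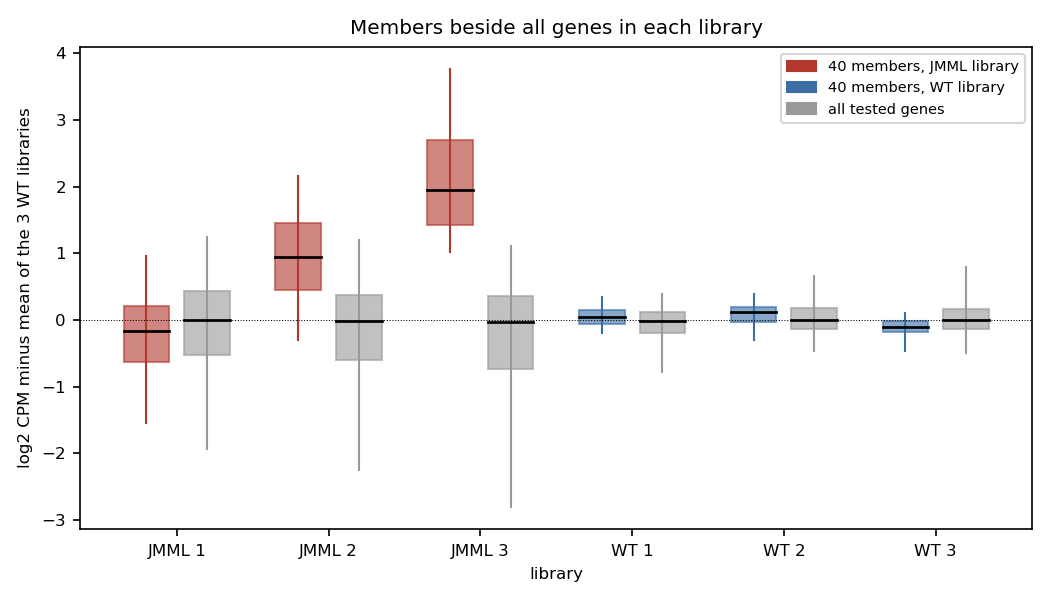
Log2 CPM minus the mean of the 3 WT libraries (vertical axis) in each library (horizontal axis), for the 40 members (red in JMML, blue in WT) and all tested genes (grey). Lines inside boxes are medians, boxes run from the 25th to the 75th percentile and whiskers run from the 5th to the 95th percentile. The members' median is −0.16, 0.95 and 1.95 in JMML replicates 1, 2 and 3, while that of all genes stays near 0.

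The order of the JMML libraries was nearly the same for every member. Replicate 3 was the highest JMML library for all 40 members, against 29.5% of all tested genes. For 38 members replicate 1 was also the lowest, against 16.7% of all tested genes with that order. The 2 exceptions were Isg20 and Samd9l, whose lowest JMML library was replicate 2. The level in JMML replicate 3 was 1.39-fold to 35.4-fold that in JMML replicate 1, with a median of 3.96-fold. The range over the JMML libraries was wider than that over the WT libraries for all 40 members. Its median was 1.98 on the log2 scale in JMML and 0.36 in WT, whereas over all tested genes it was 0.48 in JMML and 0.43 in WT. The order is a description, since the list and an earlier account of interferon genes in these libraries were known when it was counted.

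**Figure D2:**
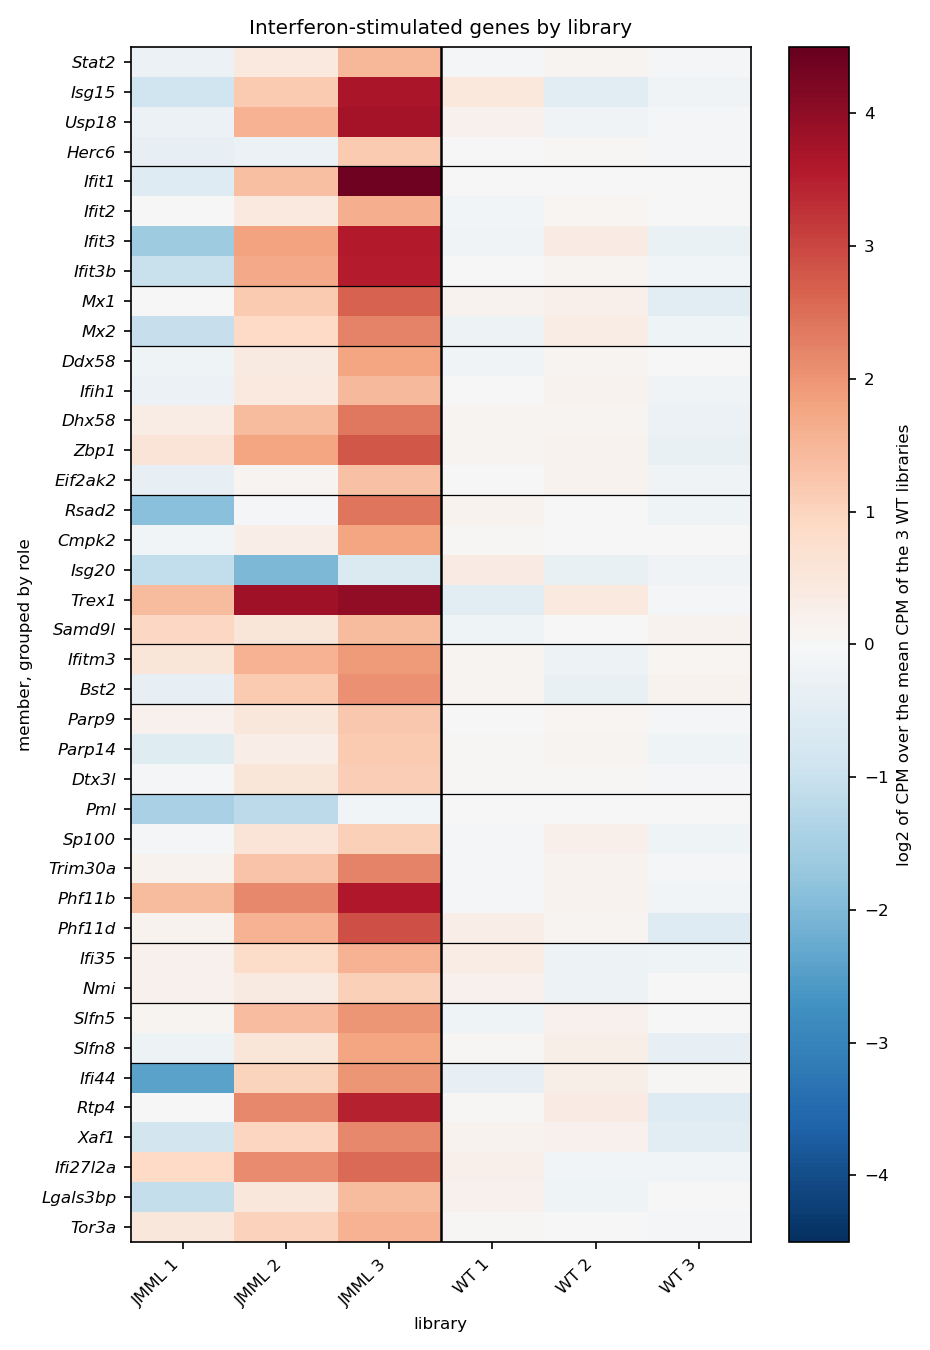
Log2 of the CPM in each library over the mean CPM of the 3 WT libraries (colour) for the 40 members (rows, grouped by role) in the 3 JMML and 3 WT libraries (columns). JMML replicate 3 is the highest JMML library in every row, and Isg20 and Pml are below the WT mean in all 3 JMML libraries.

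JMML replicate 3 also differs from the other JMML libraries in its identifier. In the titles an F closes the identifier of JMML replicates 1 and 2, and an M that of JMML replicate 3 and of every WT library; what the letters mean is not stated. Counts of Xist, the X-inactivation RNA, were 54449, 49961 and 4 in JMML and 8, 36 and 13 in WT. JMML replicate 3 has the same identifier prefix as WT replicate 3. WT replicate 3 had the lowest median of the members among the WT libraries, while JMML replicate 3 had the highest of all libraries. Library depth was highest in JMML replicate 2. The part of depth or of the shared prefix in the order of the JMML libraries was not tested.

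Cell type markers also differed among the JMML libraries. The summed CPM of 8 plasmacytoid dendritic cell markers was 23.2, 29.8 and 66.4 in JMML, against 80.5, 82.1 and 167 in WT, with 7 of the 8 detected in every library. Spib and Runx2 made up most of the sum in WT and were called lower. Spib had 1.21, 1.79 and 10.2 CPM in JMML, against 24.8, 20.1 and 83.5 CPM in WT. Siglech and Pacsin1 stood in JMML replicate 3 at 0.73-fold and 0.69-fold of the WT mean without a call. Ccr9, Ly6d and Cox6a2 stood there at 2.16-fold, 1.24-fold and 1.63-fold, also without a call. Ly6d and Cox6a2 were nevertheless lower in JMML replicate 3 than in WT replicate 3 (14.6 against 22.1 CPM and 2.62 against 2.78 CPM). Klk1 did not pass the filter on low counts. Summed over 6 natural killer cell markers, expression was 12.5, 24.2 and 37.6 CPM in JMML, against 13.8, 19.0 and 18.9 CPM in WT, and over 8 T-cell markers it was 12.5, 15.9 and 20.5 CPM in JMML, against 47.4, 60.7 and 41.6 CPM in WT. The sums of these 3 lists had the same order over the JMML libraries as the module. Single markers did not all follow it, since Runx2 was highest and Cox6a2 lowest in JMML replicate 2. Every T-cell and natural killer marker had counts in every library. The 8 monocyte markers summed to 5876, 5826 and 3038 CPM in JMML, against 2245, 2470 and 2240 CPM in WT. Fn1 and F13a1 made up most of the sum in JMML replicate 1, at 2599 and 1597 CPM. The monocyte markers had no common order. F13a1 had 1597, 1557 and 950 CPM in JMML, and Ly6c2 had 526, 695 and 640 CPM. Cx3cr1 was lower in every JMML library than in any WT library. The 8 macrophage markers summed to 360.0, 280.1 and 141.7 CPM in JMML, against 404.6, 500.6 and 307.8 CPM in WT. These markers did not move together, since Adgre1 was called higher (172, 107 and 90.8 CPM in JMML, against 63.97, 61.7 and 64.2 CPM in WT) and Vcam1 and Timd4 lower (Vcam1 90.3, 83.7 and 28.8 CPM in JMML, against 202, 291 and 154 CPM in WT). The 8 neutrophil markers summed to 26882, 15828 and 22895 CPM in JMML, against 8833, 8996 and 17771 CPM in WT. All JMML sums were below all WT sums for B-cell (9.999 to 15.2 CPM in JMML, 101 to 441 CPM in WT), erythroid (139 to 390.1 and 1037 to 1403), megakaryocyte (13.2 to 27.5 and 239 to 770.3) and endothelial markers (44.4 to 69.8 and 203 to 364). No marker of these lists was at 0 in all libraries. The part of cell composition or of sex in the module's values was not tested.

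The groups were compared with edgeR's quasi-likelihood test over all 18097 tested genes, and calls were made at a Benjamini-Hochberg adjusted p under 0.05. All 40 members passed the filter on low counts, and 11 were called higher in JMML while 1, Isg20, was called lower. Over all tested genes, 12.4% were called higher and 13.8% lower, so 11 of 40 higher compares with a background of 12.4%. The fitted log2 fold change was positive for 38 members, with a median of 1.11 over the members and −0.02 over all tested genes. All 3 JMML values lay above all 3 WT values for 10 members, against 22.9% of all tested genes, and below them for 2 members, against 24.6%. Of the 40 members 28 were not called, and 24 members had an unadjusted p under 0.05 in either direction, against 40.9% of all tested genes. The calls also depended on single libraries. Without WT replicate 2 only Trex1 was called, against 5.88% of all tested genes called higher. Without WT replicate 1 there were 4 members higher, against 7.0% of genes, and without WT replicate 3 there were 5, against 9.44%. Without JMML replicate 2 there were 6 higher, against 8.18%. None was called lower in these 4 fits. Their shares of all tested genes called lower are not given one by one, so no result about the members is drawn from this. Without JMML replicate 3 there were 7 higher and 2 lower, against 9.51% and 9.47% of genes. Without JMML replicate 1 there were 31 higher and 0 lower, against 10.5% and 11.7% of genes.

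**Figure D3:**
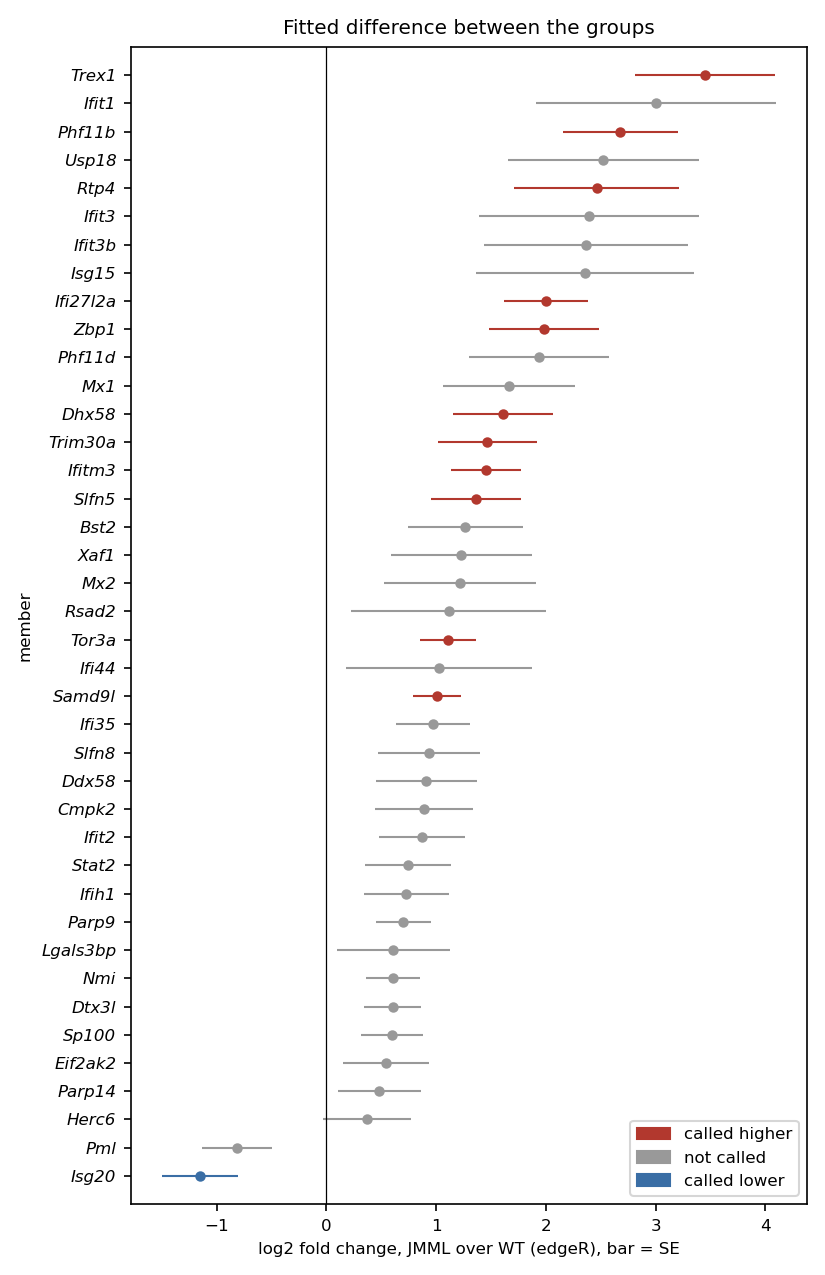
Fitted log2 fold change of JMML over WT from edgeR (horizontal axis) with its SE (bars) for the 40 members (vertical axis), red where called higher, blue where called lower and grey where not called. Of the members, 38 lie above 0, and Ifit1 with the second largest estimate, 3.00, has an SE of 1.095 and no call.

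Each JMML library was also set alone against the 3 WT libraries, with the spread taken from WT and assumed for the lone library. The members' JMML range, with a median of 1.98 log2 against 0.36 in WT, does not bear out that assumption, so these calls set 1 library against the spread of WT and do not test the groups. JMML replicate 3 alone gave 38 of the 40 members higher, against 6.11% of all tested genes, and the 2 not called were Isg20 and Pml. JMML replicate 2 alone gave 15 members higher and 2 lower, against 5.84% and 5.41% of all tested genes. JMML replicate 1 alone gave 2 members higher and 3 lower, against 5.56% and 4.43% of all tested genes. The 2 higher were Phf11b and Samd9l, and the 3 lower were Rsad2, Lgals3bp and Pml. JMML replicate 3 alone is also the comparison within libraries whose identifiers end in M, and the fit with the letter as a covariate, which rests on the same contrast, called 35 members higher and 0 lower, against 5.35% and 6.91% of all tested genes.

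Within signalling and the ISG15 system, Stat2, a subunit of ISGF3, had 29.7, 48.6 and 100.5 CPM in JMML, against 33.6, 39.2 and 34.1 CPM in WT. Only JMML replicates 2 and 3 lay above the WT libraries, and the groups overlapped (log2 fold change 0.74 ± 0.39 SE, adjusted p = 0.198). Isg15, a ubiquitin-like protein that is attached to other proteins, had 1.11, 4.68 and 26.1 CPM in JMML, against 2.89, 1.47 and 1.84 CPM in WT. JMML replicate 3 stood at 12.6-fold of the WT mean, and JMML replicate 1 was below every WT library (log2 fold change 2.36 ± 0.99 SE, adjusted p = 0.117). Usp18 removes ISG15 from its targets and also blocks signalling at the receptor. It had 3.597, 12.9 and 58.4 CPM in JMML, against 4.996, 3.87 and 4.16 CPM in WT, again with JMML replicate 1 below all WT libraries (log2 fold change 2.52 ± 0.87 SE, adjusted p = 0.0696). None of the 4 genes of this group was called, and the fourth, Herc6, the ligase that attaches ISG15 in mouse, had the smallest positive log2 fold change of all members (0.37 ± 0.40 SE).

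**Figure D4:**
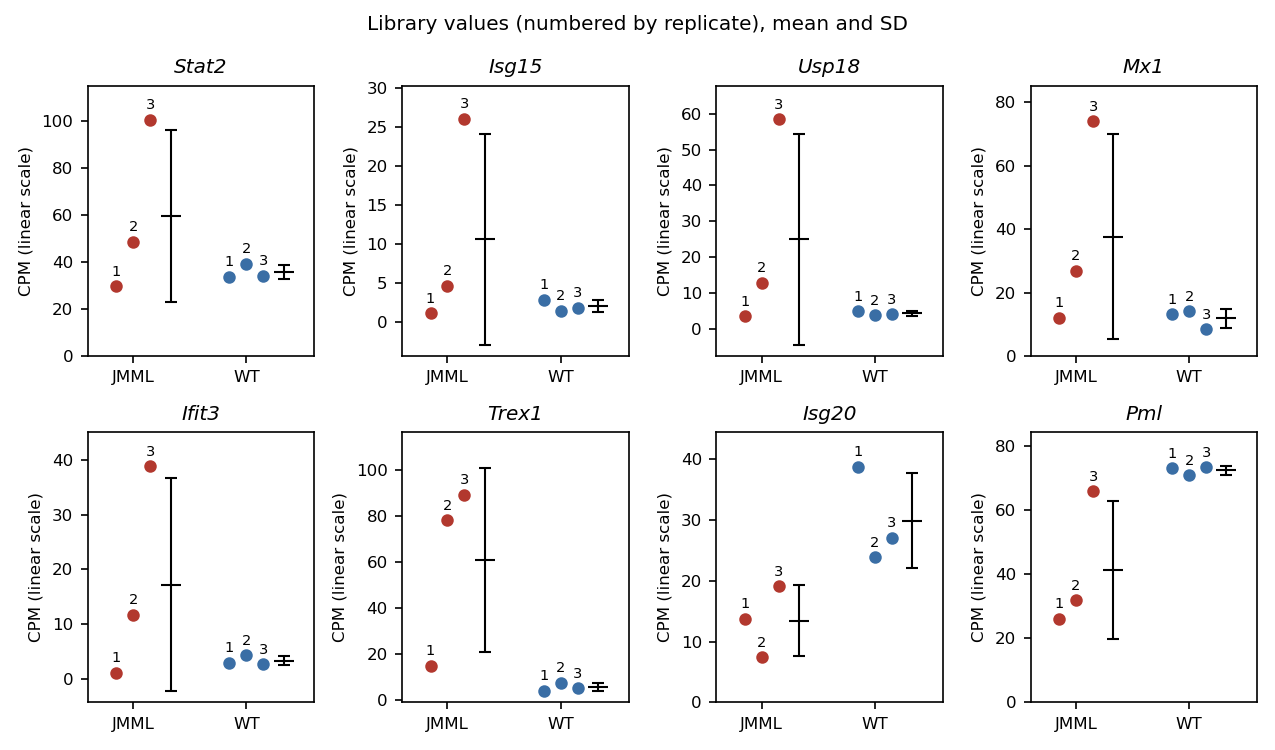
CPM on a linear axis for 8 members in each JMML and WT library (points, numbered by replicate) with the group mean and SD (n = 3 each). JMML replicate 3 is the highest JMML point in every panel, and for Isg20 and Pml all JMML points lie below all WT points.

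The IFIT proteins bind foreign RNA, and IFIT1 recognises RNA ends that lack the host's cap methylation. Ifit1 had 1.44, 5.57 and 45.1 CPM in JMML, against 2.198, 2.15 and 2.15 CPM in WT. The WT values lay within 2.15 to 2.20 CPM, and JMML replicate 3 stood at 20.8-fold of their mean, the largest such ratio in the module (log2 fold change 3.00 ± 1.095 SE, adjusted p = 0.0807). Ifit3, whose human counterpart stabilises IFIT1, had 1.097, 11.7 and 38.9 CPM in JMML, against 2.94, 4.25 and 2.68 CPM in WT. Its copy Ifit3b had 0.658, 4.296 and 15.4 CPM in JMML, against 1.32, 1.42 and 1.203 CPM in WT. Both copies were below all WT libraries in JMML replicate 1 and above them in JMML replicates 2 and 3. Neither was called (Ifit3 log2 fold change 2.39 ± 1.002 SE, adjusted p = 0.116), and the counts of both summed before the fit gave no call either. Ifit2 had 26.8, 36.3 and 84.9 CPM in JMML, against 24.997, 28.8 and 27.3 CPM in WT. All 4 genes lie on chromosome 19 of GRCm38, between 34550694 (start of Ifit2) and 34650009 (end of Ifit1).

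The dynamin-like GTPases Mx1 and Mx2 block the replication of viruses, and many laboratory mouse strains are known to carry defective copies of Mx1. Mx1 had 12.01, 26.9 and 74.01 CPM in JMML, against 13.2, 14.1 and 8.41 CPM in WT. JMML replicate 1 lay within the WT values and the other JMML libraries above them (log2 fold change 1.66 ± 0.60 SE, adjusted p = 0.0778). Mx2 had 1.29, 4.94 and 12.5 CPM in JMML, against 2.31, 3.39 and 2.36 CPM in WT, so JMML replicate 1 was below WT (log2 fold change 1.219 ± 0.69 SE, adjusted p = 0.225).

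Among the nucleic acid sensors, Zbp1 and Dhx58 of 5 members were called higher, against 12.4% of all tested genes. Zbp1, a sensor of Z-form nucleic acid that can start cell death, had 10.6, 24.04 and 48.7 CPM in JMML, against 7.67, 7.78 and 5.64 CPM in WT. Dhx58, which encodes LGP2, a regulator of RIG-I-like receptors, had 19.2, 40.3 and 78.8 CPM in JMML, against 16.3, 16.4 and 12.7 CPM in WT. For both genes every JMML library was above every WT library, with JMML replicate 1 the nearest to WT. Their tests gave for Zbp1 a log2 fold change of 1.98 ± 0.50 SE, adjusted p = 0.0264, and for Dhx58 a log2 fold change of 1.61 ± 0.46 SE, adjusted p = 0.0384. The RNA sensors Ddx58 (RIG-I) and Ifih1 (MDA5) and the kinase Eif2ak2 (PKR) were not called, with log2 fold changes of 0.91 ± 0.46, 0.73 ± 0.39 and 0.54 ± 0.39 SE. In JMML replicate 1 these 3 stood at 87.2%, 84.1% and 77.1% of the WT mean, and in JMML replicate 3 at 3.46-fold, 2.77-fold and 2.49-fold of it.

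The enzymes of nucleotides and nucleic acids held the module's highest and lowest fold changes. Trex1 (ENSMUSG00000049734, chr9:109057933-109059734 in GRCm38), a DNA exonuclease that clears cytosolic DNA, had 14.97, 78.4 and 89.4 CPM in JMML, against 4.01, 7.51 and 5.26 CPM in WT. All JMML libraries were above WT, and replicates 2 and 3 were close to each other (log2 fold change 3.45 ± 0.64 SE, adjusted p = 0.00997). Since its exons lie wholly within those of Atrip, the division of reads between these genes is uncertain. Its call was kept in each of the 15 alternatives that left at least 2 libraries per group, between 3.06 and 4.00 on the log2 scale. Samd9l, a regulator of growth and translation in blood cells, had 241, 187 and 339 CPM in JMML, against 112, 129 and 140.3 CPM in WT. It was the member with the smallest range over the JMML libraries, and replicate 1 was above replicate 2 (log2 fold change 1.01 ± 0.22 SE, adjusted p = 0.0164). Isg20 (ENSMUSG00000039236, chr7:78913424-78920396 in GRCm38), an exonuclease of RNA, had 13.8, 7.46 and 19.2 CPM in JMML, against 38.8, 23.9 and 27.1 CPM in WT. It was the only member called lower, and all JMML libraries were below all WT libraries (log2 fold change −1.15 ± 0.35 SE, adjusted p = 0.0461). That call ended in 7 of 15 alternatives, among them thinning to equal totals, the identifier letter as covariate and 5 of the 6 fits that left out a library. Rsad2 (viperin), which makes a chain-terminating nucleotide, was named after its values were seen, for its opposite differences between JMML libraries. It had 3.57, 12.2 and 69.4 CPM in JMML, against 14.5, 13.3 and 11.6 CPM in WT. JMML replicate 1 stood at 27.2% of the WT mean and JMML replicate 3 at 5.29-fold of it, and its fitted log2 fold change of 1.11 ± 0.89 SE became −0.73 without JMML replicate 3. Its neighbour Cmpk2, which supplies the nucleotide used by viperin, had 46.2, 61.6 and 173 CPM in JMML, against 52.5, 49.97 and 49.5 CPM in WT.

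Of the membrane restriction factors, Ifitm3, which blocks virus entry at endosomes, had 94.7, 191 and 243 CPM in JMML, against 69.4, 54.8 and 68.7 CPM in WT. All JMML libraries were above all WT libraries (log2 fold change 1.45 ± 0.32 SE, adjusted p = 0.0168). Per length it was the most abundant member, at 364 TPM (counts scaled for exon length and library size) on average in JMML and 155 TPM in WT. Bst2 (tetherin), which holds budding virions at the cell surface and also marks plasmacytoid dendritic cells, had 14.97, 43.7 and 81.6 CPM in JMML, against 20.97, 15.6 and 21.9 CPM in WT. JMML replicate 1 was below all WT libraries and the others above, without a call (log2 fold change 1.26 ± 0.52 SE, adjusted p = 0.113).

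The PARP proteins add ADP-ribose to other proteins, and PARP9 acts in a complex with the ubiquitin ligase DTX3L. Parp9 had 44.6, 55.6 and 90.8 CPM in JMML, against 39.2, 41.3 and 36.996 CPM in WT. Its JMML and WT values did not overlap, yet the test gave no call (log2 fold change 0.70 ± 0.25 SE, adjusted p = 0.0739). Dtx3l had 75.05, 114 and 166 CPM in JMML, against 80.03, 80.6 and 73.3 CPM in WT, with JMML replicate 1 inside the WT range (log2 fold change 0.60 ± 0.26 SE, adjusted p = 0.123). Parp14 stood at 68.6% of the WT mean in JMML replicate 1 and at 2.27-fold of it in JMML replicate 3.

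Among nuclear body, TRIM and PHD genes, 2 of 5 were called higher, against 12.4% of all tested genes. Phf11b, a PHD finger gene, had 10.7, 17.8 and 48.03 CPM in JMML, against 3.81, 4.48 and 3.66 CPM in WT. Every JMML library was above every WT library, and the lowest, replicate 1, stood at 269% of the WT mean (log2 fold change 2.68 ± 0.53 SE, adjusted p = 0.012). Trim30a, which restrains NF-kappaB signalling downstream of Toll-like receptors, had 62.6, 138 and 265 CPM in JMML, against 52.5, 62.97 and 53.3 CPM in WT. JMML replicate 1 overlapped the WT values (log2 fold change 1.46 ± 0.45 SE, adjusted p = 0.0493). Pml, the organiser of PML nuclear bodies, was named after its values were seen, for its direction. It had 26.1, 31.98 and 65.9 CPM in JMML, against 73.2, 70.96 and 73.5 CPM in WT. All JMML libraries were below all WT libraries, but replicate 3 reached 65.9 CPM, near the lowest WT value of 71.0 (log2 fold change −0.81 ± 0.32 SE, adjusted p = 0.0997). Sp100, another protein of these bodies, had a log2 fold change of 0.60 ± 0.28 SE, and Phf11d had 1.94 ± 0.64 SE, both without a call.

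Ifi35 and Nmi, whose proteins bind each other, were not called. Ifi35 had 28.5, 43.9 and 74.4 CPM in JMML, against 31.3, 21.5 and 22.02 CPM in WT, with replicate 1 inside the WT range (log2 fold change 0.97 ± 0.34 SE, adjusted p = 0.0716). Nmi had 14.05, 16.03 and 25.7 CPM in JMML, against 13.9, 10.5 and 12.2 CPM in WT, and its groups did not overlap (log2 fold change 0.61 ± 0.25 SE, adjusted p = 0.109). Of the Schlafen genes, Slfn5 had 40.2, 96.3 and 146 CPM in JMML, against 32.02, 42.1 and 35.8 CPM in WT. It was called, although JMML replicate 1 lay within the WT range (log2 fold change 1.36 ± 0.41 SE, adjusted p = 0.0456). Slfn8 had 23.3, 39.6 and 92.2 CPM in JMML, against 27.8, 32.5 and 20.7 CPM in WT, without a call (log2 fold change 0.94 ± 0.46 SE, adjusted p = 0.171).

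Of the 6 remaining members, 3 were called higher, against 12.4% of all tested genes. Ifi27l2a, a small interferon-induced membrane protein, had 28.3, 65.8 and 88.5 CPM in JMML, against 17.8, 13.9 and 13.9 CPM in WT. Tor3a, an ATPase of the endoplasmic reticulum, had 27.1, 39.3 and 56.9 CPM in JMML, against 19.6, 18.96 and 18.5 CPM in WT. In both, every JMML library was above every WT library. The fitted differences were for Ifi27l2a a log2 fold change of 2.00 ± 0.38 SE, adjusted p = 0.0109, and for Tor3a a log2 fold change of 1.11 ± 0.25 SE, adjusted p = 0.0195. Rtp4, a chaperone of G protein-coupled receptors, had 4.79, 21.1 and 52.5 CPM in JMML, against 4.92, 6.11 and 3.21 CPM in WT. JMML replicate 1 was inside the WT range (log2 fold change 2.46 ± 0.75 SE, adjusted p = 0.0486). Ifi44, Xaf1 and Lgals3bp were not called, with log2 fold changes of 1.02 ± 0.84, 1.23 ± 0.64 and 0.61 ± 0.52 SE. In JMML replicate 1 they stood at 18.7%, 55.9% and 47.5% of the WT mean. Ifi44 was the member with the lowest level per length, at 0.698 TPM in JMML and 0.392 TPM in WT, and its lowest library held 22 counts.

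Among the 12 called members, Trex1 kept its call in all 6 fits that left out a library. Ifitm3, Phf11b and Ifi27l2a each lost it only without WT replicate 2, Samd9l without WT replicate 1 or 2, and Tor3a in each of the 3 fits without a WT replicate. Dhx58, Zbp1, Trim30a, Slfn5 and Rtp4 lost it in 4 or 5 of the 6 fits. Without JMML replicate 3 the log2 fold change became 0.98 for Dhx58, 1.301 for Zbp1, 0.84 for Trim30a, 0.90 for Slfn5 and 1.45 for Rtp4.

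Members with a low level in WT tended to differ more in JMML replicate 3. Across the 40 members, the mean log2 CPM in WT and the difference of JMML replicate 3 from it had a Pearson r of −0.74. Both measures contain the WT values, and members are not independent replicates, so this is a description. The differences of JMML replicates 2 and 3 from WT had a Pearson r of 0.83 across members and share the WT libraries. The 8 members at more than 10-fold of the WT mean in JMML replicate 3 were Ifit1, Trex1, Usp18, Isg15, Phf11b, Ifit3, Ifit3b and Rtp4. The 15 members with ISRE letters in a promoter window had a median difference from the WT mean of −0.26, 1.223 and 2.08 log2 in JMML replicates 1, 2 and 3, and the 15 with a window but no match −0.09, 0.55 and 1.43. The 10 members without a window stood at 0.13, 1.32 and 2.47.

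**Figure D5:**
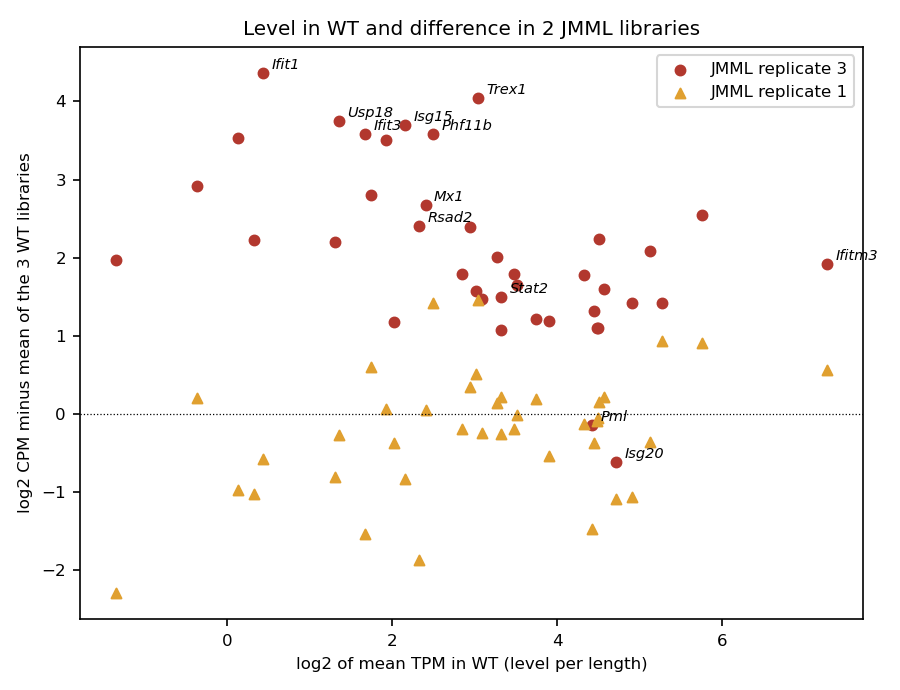
Log2 CPM minus the mean of the 3 WT libraries (vertical axis) in JMML replicate 3 (red circles) and JMML replicate 1 (yellow triangles) against log2 of the mean TPM in WT (horizontal axis), 1 point per member and library. In JMML replicate 3, 38 of 40 members lie above 0, with Ifit1 at 4.36 and Isg20 lowest at −0.61.

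Genes upstream of the module were taken from lists of the interferon pathway. None of the 21 interferon ligand genes passed the filter on low counts. The 18 type I ligand genes together had 10, 4 and 2 counts in JMML and 9, 20 and 14 counts in WT, with at most 6 counts for any gene in a library. Ifnb1 had 0 counts in all libraries, which allows up to 0.0366, 0.0285 and 0.0330 CPM in JMML and up to 0.0461, 0.0575 and 0.0516 CPM in WT (3 counts, counting error only). Ifng, the type II ligand, had 0, 8 and 29 counts in JMML and 6, 4 and 18 counts in WT. The Ifna genes are near-identical copies of each other, so their counts are uncertain.

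Of 10 receptor and signalling genes, 4 were called higher and 0 lower, against 12.4% and 13.8% of all tested genes. These were Ifnar1 (log2 fold change 0.30 ± 0.09 SE, adjusted p = 0.0457), the interferon-gamma receptor chains Ifngr1 and Ifngr2 (log2 fold changes 0.68 ± 0.17 and 0.94 ± 0.12 SE), and the kinase Tyk2 (log2 fold change 0.83 ± 0.11 SE, adjusted p = 0.00404). Tyk2 had 117, 137 and 138 CPM in JMML, against 78.005, 68.8 and 73.8 CPM in WT, so its JMML libraries differed little among themselves. Like Tyk2, Irf9, which encodes the DNA-binding partner of STAT2 in ISGF3, had the order of the module. Its range over the JMML libraries was wider than that of Tyk2 (1.42 against 0.23 log2). Irf9 had 46.7, 80.03 and 125 CPM in JMML, against 53.4, 54.8 and 43.9 CPM in WT. It was not called (log2 fold change 0.73 ± 0.32 SE, adjusted p = 0.13). Jak1 had a log2 fold change of −0.21 ± 0.10 SE. Of 5 feedback genes 0 were called by edgeR, and 0 had an unadjusted p under 0.05, against 40.9% of all tested genes. The nearest to a call, Ptpn2, a phosphatase of JAK1, had a log2 fold change of 0.20 ± 0.11 SE, with Socs1 and Socs3 at 0.59 ± 0.44 and −0.56 ± 0.46 SE.

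Of 14 genes listed under sensors and adaptors, 9 were called higher and 0 lower, against 12.4% and 13.8% of all tested genes. Tlr3, the endosomal receptor of double-stranded RNA, had 39.1, 48.9 and 56.9 CPM in JMML, against 3.86, 4.62 and 3.58 CPM in WT, without overlap (log2 fold change 3.59 ± 0.20 SE, adjusted p = 0.000699). The other genes called without overlap between the groups were, by log2 fold change and SE, Tmem173 (STING, 0.90 ± 0.14), Tbk1 (0.43 ± 0.10), Ikbke (0.60 ± 0.14), Myd88 (0.91 ± 0.17), Tlr9 (0.60 ± 0.17), Ticam1 (0.51 ± 0.15) and Cgas (0.73 ± 0.21). Irf7, the factor that amplifies interferon transcription and is itself induced by interferon, had 12.6, 56.5 and 99.6 CPM in JMML, against 14.04, 13.7 and 10.3 CPM in WT. Its JMML replicate 1 lay inside the WT range, as in many members (log2 fold change 2.15 ± 0.63 SE, adjusted p = 0.0427). The genes nearest to a call were Tlr7 (1.62 ± 0.62), Mavs (−0.30 ± 0.13, unadjusted p = 0.0485) and Adar (0.54 ± 0.28).

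Of 20 other interferon-induced genes, 5 were called higher and 1 lower, against 12.4% and 13.8% of all tested genes, and 17 had the module's order of JMML libraries. The oligoadenylate synthetase Oas1g had 7.62, 25.1 and 37.6 CPM in JMML, against 2.69, 2.22 and 2.11 CPM in WT, and its JMML libraries were all above WT (log2 fold change 3.32 ± 0.54 SE, adjusted p = 0.00686). Oas1a, Oas2 and Oas3 of the same family were called at log2 fold changes of 2.70 ± 0.54, 1.98 ± 0.51 and 2.31 ± 0.68 SE, and Oasl2 was not (2.60 ± 0.86). The DNA sensor Ifi204 was called at 1.70 ± 0.43, and the chemokine gene Ccl5 was lower at −1.03 ± 0.30. Of the receptor list 5 of 10 genes, of the feedback list 1 of 5 and of the sensor list 8 of 14 had the module's order, against 16.7% of all tested genes. The order does not measure the size of the differences, since Jak1 had it with a range of 0.065 log2 over the JMML libraries.

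Outside the module, the genes most like it were sought among 11078 genes whose mean log2 CPM reached 2. Likeness was the root mean square distance, over the 6 libraries, between a gene's log2 CPM minus its WT mean and the median of the members. Among the 10 nearest were Tap1, Ddx60, Gm12250 (annotated as a processed pseudogene), Gbp9, Rnf213, Gvin1, Gm4070, Irf9 and Mndal, and the 10 lay at distances of 0.22 to 0.30 log2, against a lowest distance of 0.21 and a median of 0.43 for the members themselves, from which the profile was made. Tap1, a subunit of the peptide transporter of antigen presentation, was the nearest, at 69.1, 122.5 and 179.4 CPM in JMML, against 63.4, 59.2 and 57.4 CPM in WT (log2 fold change 1.04, adjusted p = 0.0421). It was the only one of the 10 called between the groups. Rnf213, a ubiquitin ligase, was at 350.3, 879.9 and 1349 CPM in JMML, against 535.3, 561.1 and 429.2 CPM in WT, so its JMML replicate 1 was below all WT libraries as in 20 of the members.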

How the data were processed

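Total RNA was sequenced from 3 JMML and 3 WT libraries, prepared with a stranded total RNA kit per the labels' protocols. The authors deposited whole-number raw counts per Ensembl gene, 46078 genes in each of 6 tables. The submitters' processing notes name STAR 2.5.3a, StringTie 1.3.3b, Picard 2.0.1, DESeq2 1.22.2 and the build GRCm38, with no roles given; no source used here gives the counter, annotation release or strand setting. Between 51.6% and 58.8% of counts from 1 to 20 were even, and whether mates were counted separately is not stated. Symbols came from GENCODE vM21, which matched 45229 IDs.

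Counts were tested in R 4.3.3 with edgeR 4.0.16 (filterByExpr by group, TMM scaling, quasi-likelihood F test, Benjamini-Hochberg adjustment over 18097 genes, threshold 0.05). The SE of a log2 fold change is its size over the square root of F. Values per library are CPM, and log2 CPM uses a prior count of 2. TPM uses exon-union lengths. Intervals and floors cover counting error only. Alternatives used DESeq2 1.42.0 and limma 3.58.1. Promoters were read from RefSeq GRCm38.p6, copies aligned with Biopython 1.88.

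The members, the pathway and marker lists and the tests were chosen with earlier results of these data known. Full values were given for called members, for the 2 members of each role with the smallest p, and for Stat2, Isg15, Usp18, Mx1, Ifit3 and Trex1. Of each pathway list, the called genes and up to 3 further genes with the smallest p were named, and outside the module the 10 genes most like the members' median profile. Genes of the pathway lists could be among these 10, as Irf9 and Mndal were. Not every gene that these rules name is reported here. Rsad2, Cmpk2, Pml and Ifit2 were shown in full after their values were seen.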

Additional observations from a re-analysis of the deposited data

How the results depend on the processing

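In the 18 alternative fits that cover all members, the members' median log2 fold change stayed positive except with JMML replicate 1 alone (−0.17), and JMML replicate 3 stayed the highest library for 38 members with library totals or DESeq2 size factors. Library totals alone moved the median of all genes to −0.21 and gave 1287 genes higher and 3459 lower, against 2245 and 2492 with TMM, and 7 members higher. Members called higher numbered 6 with limma-voom and 21 with no low-count filter. Members called lower numbered 2 with DESeq2's Wald test and 0 after thinning. The shares of all genes called in these 4 fits are not given here, so these counts cannot be read as results about the members. With the identifier letter as covariate 969 genes were higher and 1250 lower, with 35 members higher and 0 lower. JMML replicate 1 alone gave 1006 and 802 genes higher and lower, with 2 and 3 members. JMML replicate 2 alone gave 1056 and 979 genes, with 15 and 2 members. JMML replicate 3 alone gave 1105 and 1401 genes, with 38 and 0 members. The cause was not tested.

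With the replicate block, 1358 genes were higher and 1451 lower, with 6 members higher and 1 lower. Same-numbered libraries had correlations of deviations of −0.20, 0.05 and −0.14, so the numbers were not taken to pair the samples.

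Leaving out 1 library gave 1064 (without WT replicate 2) to 1907 (without JMML replicate 1) genes higher, 1172 to 2118 lower, 1 to 31 members higher and 0 to 2 lower. Over these fits the log2 fold change ran from −0.73 to 1.64 for Rsad2, −0.10 to 0.84 for Eif2ak2, −0.32 to 0.63 for Herc6, −0.070 to 1.04 for Lgals3bp and −0.064 to 0.81 for Parp14, each below 0 without JMML replicate 3.

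With JMML replicate 1 alone, 22 members changed sign: Cmpk2 −0.13, Rsad2 −1.88, Mx2 −1.05, Eif2ak2 −0.37, Sp100 −0.10, Ifih1 −0.25, Ifi44 −2.41, Herc6 −0.37, Usp18 −0.27, Lgals3bp −1.07, Parp14 −0.54, Ifit1 −0.59, Slfn8 −0.21, Isg15 −0.90, Stat2 −0.26, Ddx58 −0.20, Xaf1 −0.84, Ifit2 −0.014, Bst2 −0.38, Dtx3l −0.055, Ifit3b −0.99 and Ifit3 −1.58. With JMML replicate 2 alone, Rsad2 (−0.075) and Herc6 (−0.23) did. Those fits take the spread from WT and assume it for the lone library. Precision is limited by the 3 libraries a group, with a common biological coefficient of variation of 29.4% over all genes.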
